A study of Macaca mulatta with 2 samples.

Results

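Pericytes of the trabecular meshwork were examined in 2 single-cell RNA libraries of rhesus macaques (Macaca mulatta). The trabecular meshwork is the filter tissue at the front of the eye through which aqueous humour drains. Cells were first kept when at least 500 genes were detected and under 20% of their unique molecular identifiers (UMIs, each counting 1 captured transcript) lay in mitochondrial genes. A kept cell was then selected on its own UMIs: it had to hold a UMI of at least 2 of the 6 genes RERGL, COX4I2, GJA4, STEAP4, NDUFA4L2 and ITIH5. It also had to hold fewer than 2 of the 5 smooth muscle genes ACTG2, PLN, MYH11, CNN1 and TNNC1, and no UMI of the endothelial gene PECAM1 or of the Schwann cell gene CDH19. This gave 1119 members among 14063 kept cells, 714 of 8633 in the glaucoma library and 405 of 5430 in the normal one. The glaucoma library is described by the series as a spontaneous primary open-angle glaucoma model and the other as a healthy control. The labels call both samples trabecular meshwork, kept cold and dissociated with collagenase, and name the disease state as the genotype. They name no treatment and do not state age, sex, eye pressure, or how many animals or eyes were used. With 1 library per group, no test between the groups was possible.

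Pericytes are the mural cells of capillaries and small venules, and lie within the basement membrane that they share with the endothelium. They depend on platelet-derived growth factor signalling through PDGFRB, hold ATP-sensitive potassium channels made of KCNJ8 and ABCC9, and can contract to change capillary width. Vascular smooth muscle cells, the mural cells of arterioles, share many of these genes but build a far denser set of contractile filaments. The meshwork itself holds few blood vessels, and the ciliary muscle beside it is richly supplied with them.

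Members held 1911770 and 1530392 UMIs in the glaucoma and the normal library, and throughout, pairs of values are given in that order. The median member held 1692.5 and 2638.0 UMIs, more in the normal library. Over all kept cells the medians were 2822 and 2716.5 UMIs, and the cause of the difference in members was not tested. Levels are summed UMIs of a group of cells per 1000000 UMIs of that group (CPM), and bracketed 95% intervals are exact (Poisson for CPM, Clopper-Pearson binomial for shares, conditional binomial for log2 ratios). Intervals and floors cover counting error only. Free RNA in the droplets can give UMIs in cells that should lack a gene. As a guide to it, levels are given for 185 and 68 kept lymphocyte-marked cells (at least 2 of CD3D, CD3E, NKG7 and IL7R). Their median depths were 1388 and 1778 UMIs. Doublets (droplets with several cells) were not removed from them, so their UMIs need not all be free RNA. In these cells the meshwork gene MYOC reached 2098 and 234 CPM, with a UMI in 41.1% and 27.9% of them. The matrix gene MGP reached 2534 and 234 CPM, and the smooth muscle actin gene ACTA2 120.3 and 105 CPM. Levels of MYOC and MGP there thus differed between the libraries, and that of ACTA2 less so. How far free RNA as a whole differed, and its part in a difference, was not tested. The libraries shared 17 barcodes, of which 4 marked a member in one of them and 0 in both.

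The label was checked against pericyte genes that the rule does not use. By the more abundant of these, it held for most members but not for those selected on only 2 genes. Members with 3 or more of the 6 genes, called core members here, numbered 506 and 296. Of 15 such pericyte genes, 8 reached 100 UMIs over both libraries in core members. Among the rest, ANPEP had a UMI in 0 and 3 core members, AOC3 in 0 and 0, TBX2 in 1 and 0 and HEYL in 6 and 2. In core members PDGFRB, the receptor that pericytes need for recruitment, stood at 545 and 859.8 CPM. ABCC9 and KCNJ8, the 2 subunits of the vascular potassium channel, stood at 418 and 576 CPM and at 332 and 375 CPM. The 208 and 109 members with exactly 2 genes had only 31.2 and 14.6 CPM of ABCC9, 147 and 197 CPM of PDGFRB and 3.23 and 1.33 CPM of MCAM, an adhesion molecule of mural cells and endothelium. In place of a mural profile they held 16477 and 21423 CPM of MYOC, the myocilin gene of meshwork cells, close to the 16359 and 16696 CPM of the cells just outside the rule.

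Just outside the rule were 1229 and 803 cells with 1 of the 6 genes that met every other condition. Their ABCC9 level was 19.5 and 9.01 CPM and their RGS5 level 106 and 32.4 CPM. Just inside, the 2-gene members had 144 and 75.9 CPM of RGS5, a regulator of G protein signalling that is a standard pericyte marker. Members with 3 genes reached 487 and 274 CPM, and members with 4 genes 1035 and 706 CPM. The step thus lay between 2 and 4 genes and not at the edge of the rule. The pairs that brought 2-gene members in were mainly COX4I2 with ITIH5 (62 and 36 cells), NDUFA4L2 with ITIH5 (50 and 18), COX4I2 with NDUFA4L2 (42 and 2) and STEAP4 with ITIH5 (7 and 19). In 79 and 45 of them both genes had a single UMI, and the median over the 6 genes was 3 UMIs in both libraries, against 19 and 26 in core members.

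**Figure D1:**
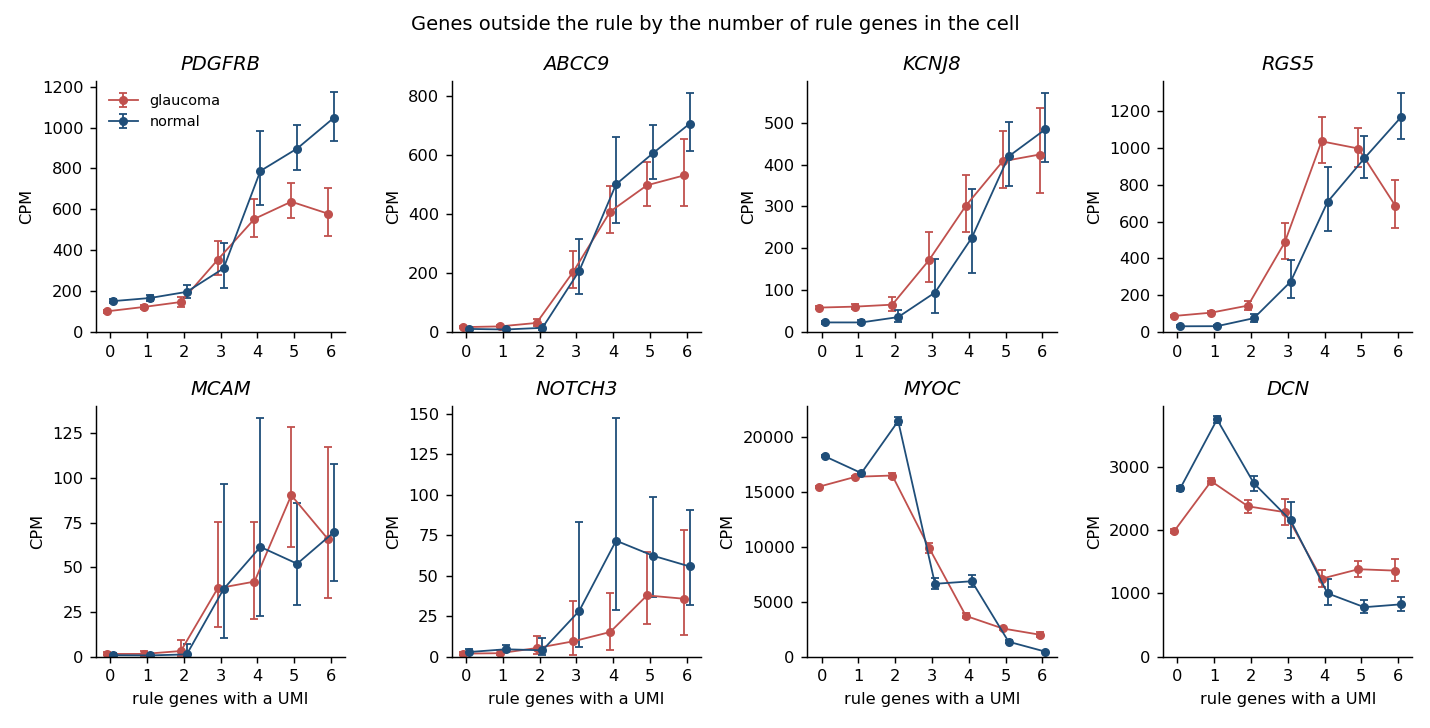
Level in CPM (vertical axes, from 0) of 8 genes that the rule does not use, by the number of the 6 rule genes with a UMI (horizontal axes) among kept cells that met the other conditions, with glaucoma in red, normal in blue and bars for 95% Poisson intervals. ABCC9, KCNJ8, RGS5 and PDGFRB were low up to 2 genes and high from 4 genes on, while MYOC was at 16477 and 21423 CPM with 2 genes and at 2012 and 467 CPM with 6.

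The 2-gene members were few but deep. They were 29.1 and 26.9% of members and held 48.6 and 49.1% of all member UMIs, since their median depth was 3996.5 and 5402.0 UMIs against 1488.0 and 2293.0 in core members. Fibroblast genes (DCN, LUM, PDGFRA, COL1A1 and COL1A2) summed to 3415 and 3744 CPM in them and to 1925 and 1329 CPM in core members. The summed meshwork markers (MYOC, CHI3L1, ANGPTL7 and RARRES1) came to 19137 and 24435 CPM in 2-gene members and to 5181 and 2741 CPM in core members. Endothelial markers summed to 144 and 80.8 CPM over 6 genes in core members, with CLDN5 at 0 in both libraries. The sum was 973 and 323 CPM in the other kept non-muscle cells and 55.3 and 22.6 CPM in lymphocyte-marked cells. Since the rule left out cells with a UMI of PECAM1, a low level was in part set by selection. Macrophage markers summed to 90.6 and 43.6 CPM and lymphocyte markers to 20.4 and 0 CPM in core members, NKG7 being at 0 in both libraries. Because a sum over all members mixes these 2 kinds of cell in about equal parts of UMIs, each result below is given for core members, and for all members where they differ. Core members were not free of meshwork and fibroblast transcripts. Those with exactly 3 genes held 9898 and 6633 CPM of MYOC and 206 and 208 CPM of ABCC9. They gave 209233 of 981939 and 105830 of 779244 core member UMIs. At least 2 of the 5 fibroblast genes had a UMI in 23.3% and 28% of core members. The part of such cells in the differences between the libraries was not tested.

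A UMI of MYOC itself was seen in 40.7% and 27.4% of core members and in 41.1% and 27.9% of lymphocyte-marked cells, so the shares were alike. By level, MYOC had 4343 and 2441 CPM in core members against 2098 and 234 CPM in lymphocyte-marked cells, and the source of these UMIs was not tested. The same comparison for RGS5 gave 70% and 76% of core members against 1.08% and 1.47% of lymphocyte-marked cells. For ABCC9 it gave 49.4% and 64.2% against 0 of 185 and 0 of 68 cells, with exact upper limits of 1.97% and 5.28%. The shares of RGS5 and ABCC9 in core members thus lay far above those in lymphocyte-marked cells.

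The 6 rule genes are described here with no test, since they chose the members. COX4I2, the hypoxia-inducible isoform of a cytochrome c oxidase subunit, was the most widely held, with a UMI in 98.6% and 98.6% of core members. RERGL, a small RAS-like GTPase of mural cells, was held by 89.5% and 91.9%, and NDUFA4L2, the inducible paralog of the respiratory subunit NDUFA4, by 86.6% and 84.8%. ITIH5, a secreted heavy chain that stabilises hyaluronan matrix, was held by 76.3% and 88.9%, and GJA4, the gap junction protein connexin-37, by 64.8% and 76.7%. STEAP4, a metalloreductase, was the least widely held at 38.5% and 51.4%. In lymphocyte-marked cells the shares of all 6 genes lay at or under 2.7% and 2.94%. By level, COX4I2 had 3926 and 4556 CPM and RERGL 3010.4 and 3296 CPM in core members. STEAP4 had 294 and 397 CPM, NDUFA4L2 1513 and 1336 CPM, GJA4 668 and 805 CPM and ITIH5 960.3 and 1382 CPM. Of the paralogs outside the rule, COX4I1 had 926 and 699 CPM in 2-gene members and 913 and 902 CPM in members with all 6 genes, and NDUFA4 had 736 and 513 CPM and 233 and 115 CPM.

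The interval of the ratio of pericyte shares between the libraries included 0. Members made up 8.27% [7.7, 8.87] in glaucoma and 7.46% [6.77, 8.19] in normal, a log2 ratio (glaucoma over normal) of 0.15 [-0.03, 0.33]. Over members without a UMI of RERGL the ratio was 0.45 [0.11, 0.79], which excludes 0. Core members made up 5.86% [5.37, 6.38] in glaucoma and 5.45% [4.86, 6.09] in normal, a log2 ratio of 0.10 [-0.11, 0.32]. After every kept cell was thinned to 1000 UMIs and the rule was applied again, the shares of members were 6.54% [6.00, 7.12] and 6.64% [5.95, 7.37], with 869 and 548 shallower cells left out. The split by gene number differed: 82 and 94 members held all 6 genes, and 153 and 51 held exactly 4. The median member held more UMIs in the normal library. Vascular smooth muscle cells (at least 2 of the 5 muscle genes, a UMI of RERGL, no PECAM1 or CDH19) made up 5.17% [4.71, 5.65] in glaucoma and 8.45% [7.73, 9.22] in normal, a log2 ratio of -0.71 [-0.90, -0.52].

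Outside the rule, the genes that most set members apart from the other kept non-muscle cells in both libraries were first a transporter, an acyltransferase and an actin regulator. Since the members were chosen by their UMIs, this is a description, and levels are for core members and then for the other cells. SLC38A11, of an amino acid transporter family, led with 449 and 616 CPM against 6.34 and 3.29 CPM. PLAAT2, a phospholipid acyltransferase, had 248 and 250.2 CPM against 3.4 and 3.36 CPM. EPS8, which caps and bundles actin, had 746 and 1353 CPM against 32.9 and 41.5 CPM. These were followed by ABCC9, with 17.2 and 13.1 CPM in other cells. Vascular smooth muscle held these genes too, with 317 and 266 CPM of SLC38A11, 131 and 142 CPM of PLAAT2 and 435 and 576 CPM of EPS8.

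Channels were among the leading genes. The calcium-activated chloride channel ANO1 had 203 and 271 CPM against 10.3 and 8.72 CPM, and the sodium channel SCN3A 111 and 175 CPM against 0.966 and 0.929 CPM. Both channels were over 10-fold higher in core members than in the other non-muscle cells. In vascular smooth muscle ANO1 had 72.1 and 74.2 CPM and SCN3A 36.4 and 59.1 CPM, so the distance from that population was smaller. HRC, a calcium-binding protein of the sarcoplasmic reticulum, had 135 and 142 CPM against 1.18 and 0.715 CPM, and 101 and 81.8 CPM in vascular smooth muscle. P2RY14, a receptor for UDP-glucose, had 119 and 148 CPM against 5.71 and 6.65 CPM.

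The remainder of the 20 leading genes included an adhesion receptor and regulators of signalling. BCAM, a laminin receptor, had 1148 and 543 CPM against 129.5 and 50.7 CPM. RASGRP2, an activator of the GTPase RAP1, had 142 and 160.4 CPM against 6.47 and 5.36 CPM. HES4, a repressor of the Notch target family, had 307 and 236 CPM against 32.6 and 23.2 CPM, and 320.2 and 233 CPM in vascular smooth muscle. The leading genes also included RGS5, KLHL23, FHL5, CCDC102B, FRMD3, SYTL2 and C14orf180. Of the 20, BCAM was the one gene at least 2-fold apart between the libraries when all members were summed. In core members CCDC102B, a coiled-coil protein, was also 2-fold lower in the glaucoma library, with 95.7 and 196 CPM.

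Mean levels of several genes changed by steps when all cells with 3 or more of the 6 genes were ordered by their number of muscle genes. This is a description, since STEAP4 and RERGL helped to select the cells and genes that go with the 5 muscle genes rise in part by the ordering. Median depth rose along it too, from 1448 and 2097.5 UMIs with 0 muscle genes to 2786 and 3531 UMIs with 3 or more. STEAP4 had 309 and 454 CPM with none of the 5 muscle genes, 271 and 311 with 1, 148 and 171 with 2 and 3.5 and 15.6 with 3 or more. ABCC9 went the same way, from 453 and 704 CPM to 28 and 31.3 CPM. PDGFRB went from 572 and 944 CPM to 165 and 254 CPM. ACTA2, smooth muscle actin, went the opposite way, from 583 and 244 to 10972 and 9969 CPM. RERGL, held by both kinds of cell, was at 2921 and 3375 CPM at one end and 4416 and 5523 CPM at the other. RGS5 did not follow the order, with 846 and 997 CPM, 844 and 766 CPM, 944 and 873 CPM, and 503 and 316 CPM. Cells with exactly 2 muscle genes also held 10951 and 4856 CPM of MYOC, above their neighbours in both libraries. Means of groups cannot tell intermediate cells from mixtures of both kinds.

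**Figure D2:**
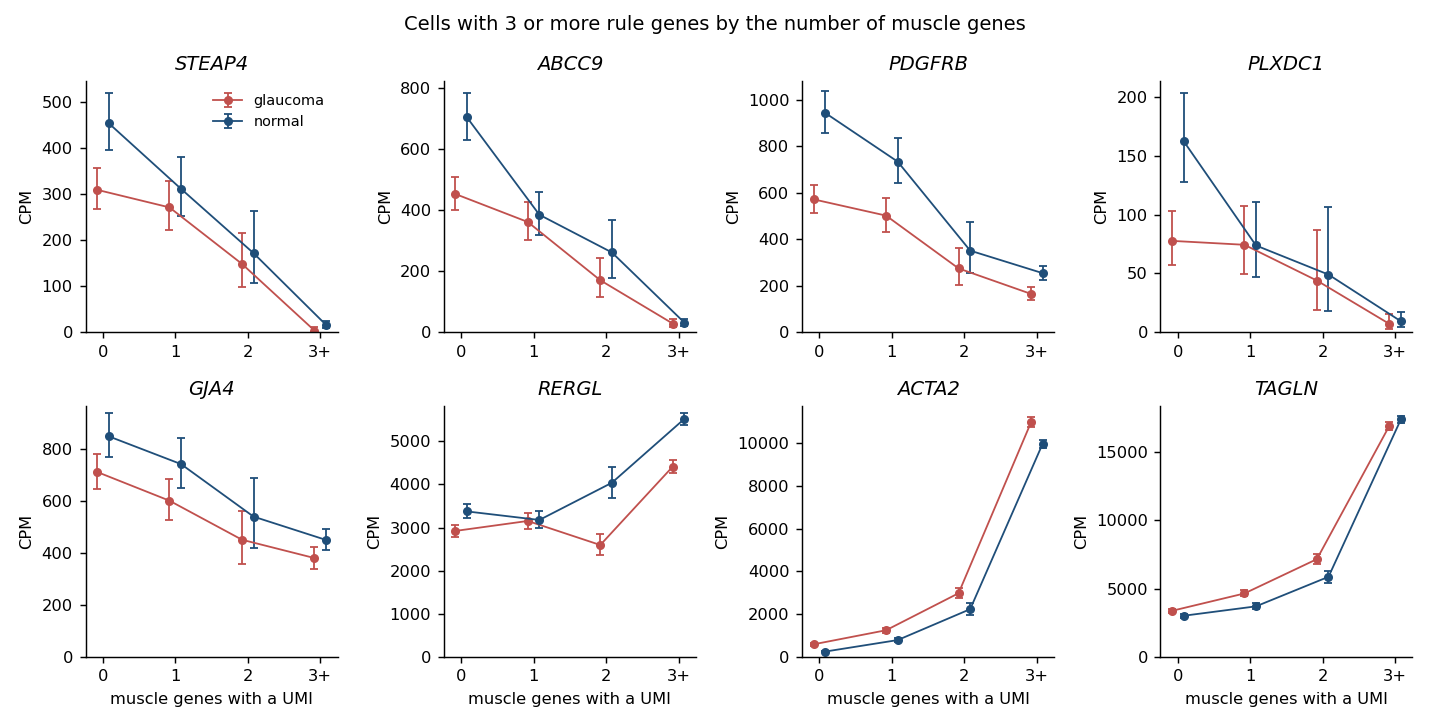
Level in CPM (vertical axes, from 0) of 8 genes in kept cells with 3 or more rule genes and no PECAM1 or CDH19, by how many of the 5 muscle genes had a UMI (horizontal axes), with glaucoma in red, normal in blue and bars for 95% Poisson intervals. Cells with 0 or 1 muscle gene are core members. STEAP4, GJA4 and RERGL are rule genes, which helped to select these cells. ABCC9 went down from 453 and 704 to 28 and 31.3 CPM as ACTA2 went up from 583 and 244 to 10972 and 9969 CPM.

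The 446 and 459 vascular smooth muscle cells all hold RERGL, and were split from core members on the same 5 muscle genes. Genes that go with these 5 therefore differ in part by selection. Against these cells, 5146 named genes outside both rules were compared within each library. In core members, 248 genes were at least 2-fold higher in both libraries, of which 66 were also at least 2-fold above the other kept cells, and 170 were lower in both. The genes given here were chosen after their values were seen, as the highest and lowest of these sets. LPL, lipoprotein lipase, had 204 and 476 CPM in core members against 14.9 and 24.5 CPM in vascular muscle, log2 ratios of 3.78 [3.11, 4.52] and 4.28 [3.80, 4.79]. CYGB, the oxygen-binding cytoglobin, had 292 and 290.02 CPM in core members against 30.5 and 22 CPM in vascular muscle. RFTN1, a lipid raft protein, led the ranking, and the basement membrane chain LAMA2 was in it with 120.2 and 212 CPM in core members against 11.9 and 15.7 CPM in vascular muscle.

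Receptors differed between the 2 mural populations. P2RY14 had 119 and 148 CPM in core members against 15.6 and 8.18 CPM in vascular muscle. SSTR2, a somatostatin receptor, had 66.2 and 57.7 CPM in core members against 8.17 and 10.7 CPM in vascular muscle. Pericytes also held more of GUCY1A2, an alpha chain of the nitric oxide receptor guanylate cyclase, with 81.5 and 108 CPM in core members against 13.4 and 7.55 CPM in vascular muscle. In the other direction, the ATP-gated channel P2RX1 had 2.04 and 2.57 CPM in core members against 140.4 and 138 CPM in vascular muscle, log2 ratios of -6.11 [-9.16, -4.23] and -5.75 [-8.81, -3.88]. The orphan receptor GPR20 had 7.13 and 2.57 CPM in core members against 108 and 113 CPM in vascular muscle, log2 ratios of -3.93 [-5.27, -2.85] and -5.46 [-8.52, -3.59]. CASQ2, which buffers calcium in the sarcoplasmic reticulum, had 7.13 and 5.13 CPM in core members against 139.7 and 141 CPM in vascular muscle. Of the purine and pyrimidine receptors named, P2RY14 was thus higher in pericytes and P2RX1 in vascular muscle, within both libraries.

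Between the libraries, a gene was counted as higher or lower when its summed UMIs gave a log2 ratio of at least 1 in size with an interval excluding 0, and when it had at least 100 UMIs over both libraries. In core members, 85 of 2832 measured genes were higher in the glaucoma library (3%) and 148 were lower (5.23%), and the median log2 ratio of all measured genes was -0.05. Over all members, 129 of 4581 genes were higher (2.82%) and 237 lower (5.17%), with a median of -0.07, and once every ratio was centred on that median 159 were higher and 188 lower. The 2 counts share 52 higher and 85 lower genes. In the other kept non-muscle cells, 76 of the 85 (89.4%) and 137 of the 148 (92.6%) had the same sign, beside 81% of all measured genes above 0 and 79.4% of those below 0. In vascular smooth muscle 79 and 142 had the same sign, or 92.9% and 95.9%, beside 80.7% and 81.4%. The sign was thus mostly shared with other cells for called and uncalled genes alike. In lymphocyte-marked cells a 2-fold difference of the same sign (with 10 CPM added) was seen for 51 of the 85 higher genes, beside 19.9% of all genes above 0, and for 23 of the 148 lower ones, beside 4.97% of all genes below 0. The part of free RNA in them was not tested.

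**Figure D3:**
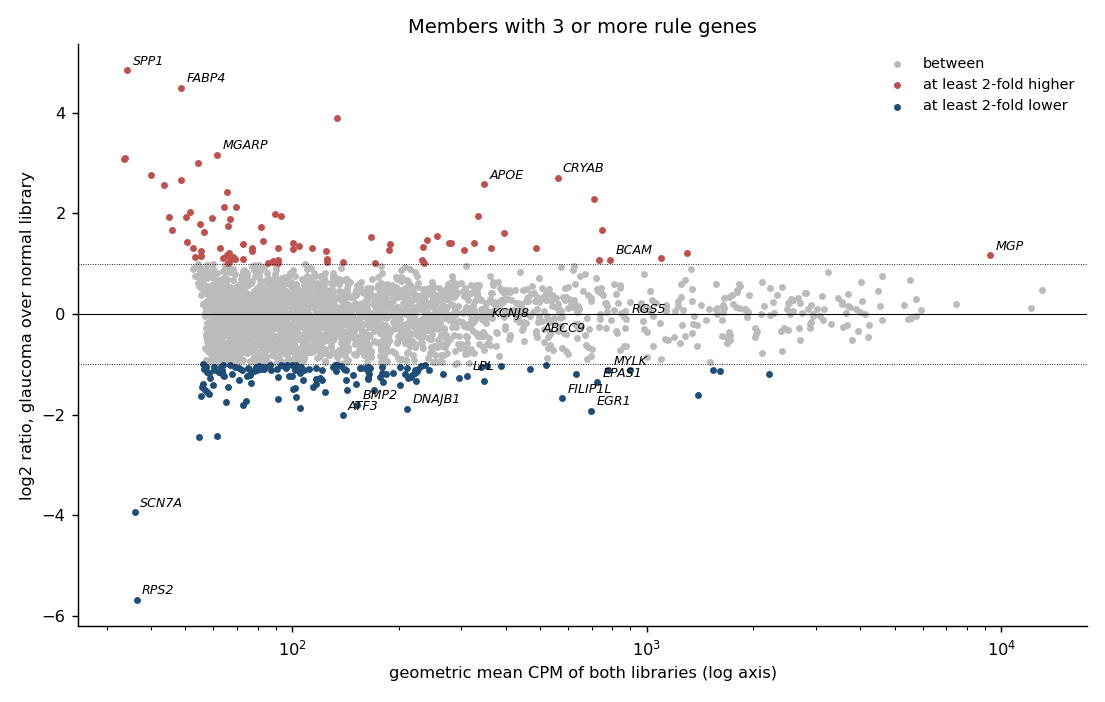
Log2 ratio of glaucoma over normal library (vertical axis) against the geometric mean CPM of both libraries (horizontal log axis) for the genes measured in core members, with genes at least 2-fold higher in red, at least 2-fold lower in blue and the others in grey. Dotted lines mark 2-fold, and a gene at 0 in the normal library (TAC1) is not drawn. FABP4 stands at 4.49, BMP2 at -1.81 and EPAS1 at -1.36, while the pericyte genes RGS5, KCNJ8 and ABCC9 lie between -0.46 and -0.10. PDGFRB, not named in the plot, is at -0.66.

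Of 8 measured pericyte genes outside the rule, 0 were higher and 0 lower in core members, with a median log2 ratio of -0.32. With 3% and 5.23% of all genes called, a count of 0 of 8 is near the background. RGS5 had 845 and 905 CPM, a log2 ratio of -0.10 [-0.24, 0.05], and KCNJ8 332 and 375 CPM, a ratio of -0.17 [-0.41, 0.06]. The intervals of both included 0. In the other kept cells RGS5 had a ratio of 1.34 [1.19, 1.49] and KCNJ8 one of 0.98 [0.82, 1.16], so the level ratio of these 2 genes in core members did not follow the rest of the tissue. ABCC9 had 418 and 576 CPM with a ratio of -0.46 [-0.66, -0.27], and PDGFRB 545 and 859.8 CPM with -0.66 [-0.82, -0.49], both lower in the glaucoma library by less than 2-fold. In the other kept cells ABCC9 had a ratio of 0.39 [0.14, 0.65] and PDGFRB one of -0.65 [-0.74, -0.55]. The ratio of PDGFRB was thus alike in core members and in the rest of the tissue. CSPG4, the NG2 proteoglycan, had 77.4 and 74.4 CPM with a ratio of 0.06 [-0.46, 0.58]. After thinning core members to 1000 UMIs, RGS5 was seen in 58.9% [54, 63.6] and 57.4% [51.2, 63.4] of cells.

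The genes of the contractile apparatus were mixed. Of 24 measured genes, 2 were higher and 2 lower, beside 3% and 5.23% of all genes. The contractile filament genes had a median log2 ratio of -0.03. MYLK, the kinase that phosphorylates myosin light chain to start contraction, had 528 and 1149 CPM in core members, a log2 ratio of -1.12 [-1.28, -0.96]. PPP1R12A, which targets the opposing myosin phosphatase, had 365 and 738 CPM and a ratio of -1.02 [-1.21, -0.82]. Both the kinase and the phosphatase subunit were thus lower in the glaucoma library. Vascular smooth muscle had 1599.8 and 3089.6 CPM of MYLK, a ratio of -0.95 [-1.02, -0.88], and 867 and 1835 CPM of PPP1R12A, while in the other kept cells MYLK had a ratio of -0.27 [-0.33, -0.21]. In all members summed, MYLK (-0.98 [-1.13, -0.84]) and PPP1R12A (-0.93 [-1.10, -0.76]) stayed just under 2-fold.

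Actin and the light chains stood closer. ACTA2 had 836 and 459 CPM, a ratio of 0.86 [0.68, 1.05], TAGLN (transgelin) 3855 and 3281 CPM with 0.23 [0.16, 0.31], and MYL9 2245 and 2808 CPM with -0.32 [-0.41, -0.24]. CALD1, the actin-binding caldesmon, had 3585 and 4937 CPM with -0.46 [-0.53, -0.40]. The 2 higher genes of the list were DES, the intermediate filament desmin, with 121 and 35.9 CPM (1.75 [1.15, 2.40]) and CRYAB, a small heat shock protein, with 1431 and 219 CPM (2.70 [2.47, 2.94]). Both were also higher in lymphocyte-marked cells, DES at 117 and 30.1 CPM and CRYAB at 237 and 45.2 CPM, and so was TAGLN at 286 and 60.3 CPM, while ACTA2 was at 120.3 and 105 CPM. The part of free RNA in these 4 differences was not tested.

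Ratios of the nitric oxide and cyclic nucleotide genes, a list that includes enzymes that break cyclic nucleotides down, were mostly below 0. Among all 2832 measured genes, 1508 were below 0. Of the 11 genes of the list that were measured, 0 were higher and 2 lower, beside 3% and 5.23% of all genes. The nitric oxide and cyclic nucleotide genes had a median log2 ratio of -0.43. The 2 lower genes were PDE3A and PDE5A, which break down cyclic nucleotides, PDE3A with 74.3 and 182 CPM (-1.29 [-1.72, -0.88]) and PDE5A with 148 and 334 CPM (-1.18 [-1.48, -0.88]). The guanylate cyclase chains GUCY1A1 and GUCY1B1 had 149 and 278 CPM (-0.91 [-1.22, -0.60]) and 517 and 680.1 CPM (-0.39 [-0.57, -0.22]). Both phosphodiesterases had ratios below 0 in the other kept cells, -1.05 [-1.22, -0.89] for PDE3A and -1.19 [-1.27, -1.11] for PDE5A.

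Few receptor and channel genes were measured in core members. Of 6 measured genes, 0 were higher and 1 lower, with a median log2 ratio of -0.49 for vasoactive receptors, and 0 of 7 channel and pump genes were 2-fold apart in either direction (median -0.33). Over all genes the shares were 3% higher and 5.23% lower. The count of 0 of 7 channel and pump genes is near these, and the receptor count rests on 1 gene of 6. The endothelin receptors EDNRA and EDNRB had 170.1 and 254 CPM (-0.58 [-0.89, -0.27]) and 229 and 319.5 CPM (-0.48 [-0.75, -0.21]). NPY1R, for neuropeptide Y, had 177 and 249 CPM (-0.49 [-0.79, -0.19]). PTGER2, a receptor for prostaglandin that raises cyclic AMP, was the lower one with 38.7 and 87.3 CPM (-1.17 [-1.79, -0.58]). HTR2A, a serotonin receptor, was higher over all members with 49.7 and 11.8 CPM (2.08 [1.34, 2.89]), but core members held 18.3 and 0 CPM, under the 100 UMIs set for a measured gene.

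**Figure D4:**
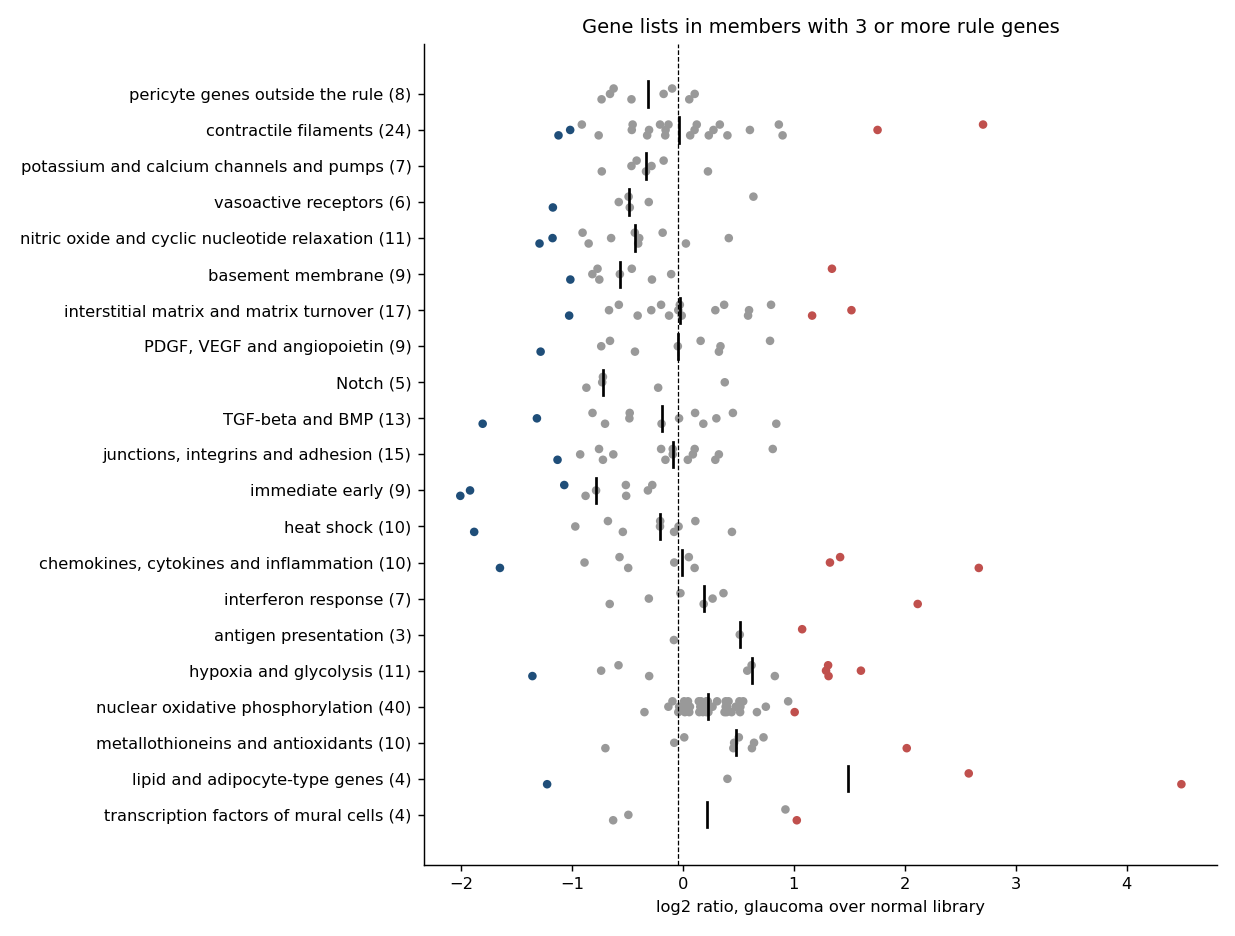
Log2 ratio of glaucoma over normal library (horizontal axis) of each gene measured in core members, by gene list (rows, number of measured genes in brackets, the lists reported with 3 or more), with genes at least 2-fold higher in red, at least 2-fold lower in blue and the others in grey. Black bars are list medians and the dashed line is the median of all 2832 genes at -0.05. The lowest median drawn is that of the immediate early genes at -0.78. Most of the 40 oxidative phosphorylation genes lie above 0, beside 1324 of all 2832 genes.

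Transcripts for the basement membrane that pericytes share with endothelium were mixed. Of 9 measured genes, 1 was higher and 1 lower, beside 3% and 5.23% of all genes, with a median log2 ratio of -0.57. COL18A1, the collagen whose fragment is endostatin, was higher with 166 and 65.4 CPM (1.34 [0.88, 1.83]), and NID1, which links laminin to collagen IV, was lower with 92.7 and 187 CPM (-1.02 [-1.41, -0.63]). COL4A1 and COL4A2 had 224 and 241 CPM (-0.11 [-0.39, 0.18]) and 223 and 271 CPM (-0.28 [-0.56, -0.00]), whereas COL4A1 had a ratio of 1.21 [1.12, 1.31] in the other kept cells. Of the interstitial matrix and its turnover, 2 of 17 genes were higher and 1 was lower, beside the same shares of all genes. MGP, an inhibitor of calcification, had 13960.1 and 6230.4 CPM (1.16 [1.12, 1.21]), and SERPINE2, an inhibitor of serine proteases, 283 and 98.8 CPM (1.52 [1.15, 1.90]). ADAMTS1, a protease of versican, was lower with 162 and 329.8 CPM (-1.03 [-1.32, -0.74]). In lymphocyte-marked cells MGP was at 2534 and 234 CPM, and the part of free RNA in its difference was not tested.

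Of 13 measured TGF-beta and BMP genes, 0 were higher and 2 lower, beside 3% and 5.23% of all genes. Their median log2 ratio was -0.19. BMP2, a secreted growth factor of vessels, had 81.5 and 285 CPM in core members, a ratio of -1.81 [-2.19, -1.43]. In vascular smooth muscle it had 50.5 and 50.9 CPM, a ratio of -0.01 [-0.50, 0.47]. In lymphocyte-marked cells it was at 0 of 185 and 0 of 68 cells, with exact upper limits of 1.97% and 5.28%. A UMI of BMP2 was seen in 70 of 506 and 127 of 296 core members (13.8% and 42.9%), and after thinning to 1000 UMIs in 10.2% [7.45, 13.4] and 25.7% [20.5, 31.4]. The other kept cells had 8.53 and 18.5 CPM of BMP2, a ratio of -1.12 [-1.39, -0.85], so it was lower outside pericytes as well. The difference between these cell groups has no test. SMAD5, which carries BMP signals, had 89.6 and 223 CPM (-1.32 [-1.70, -0.94]), and the BMP target ID3 1194 and 874 CPM (0.45 [0.31, 0.59]). Among 9 measured PDGF, VEGF and angiopoietin genes, 0 were higher and 1 lower. This was ANGPT1, the ligand by which pericytes keep the endothelial receptor TIE2 active. It had 105 and 255 CPM (-1.28 [-1.64, -0.93]), with a ratio of -1.23 [-1.30, -1.16] in the other kept cells. The Notch genes had 0 of 5 at 2-fold, with a median of -0.72, among them the ligand JAG1 with 388 and 709.7 CPM (-0.87 [-1.06, -0.68]).

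EPAS1, the hypoxia-inducible transcription factor of mural and endothelial cells, was lower in core and in 2-gene members, and not in the other kept cells. It had 453 and 1161 CPM in core members, a ratio of -1.36 [-1.52, -1.19], and 225 and 224 CPM in the other kept cells, a ratio of 0.01 [-0.06, 0.07]. Vascular smooth muscle lay between, with 572 and 975 CPM and a ratio of -0.77 [-0.90, -0.64]. So did the 2-gene members, which lacked a mural profile, with 91.4 and 166 CPM and a ratio of -0.86 [-1.28, -0.46]. A UMI was seen in 54% and 89.5% of core members and 5.95% and 4.41% of lymphocyte-marked cells, and after thinning in 39.2% [34.6, 44.1] and 66% [60, 71.7] of core members.

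The hypoxia and glycolysis genes were mixed. Of 11 measured genes, 4 were higher and 1 lower, beside 3% and 5.23% of all genes. The hypoxia and glycolysis list had a median log2 ratio of 0.62. The higher genes were GAPDH with 690.5 and 227 CPM (1.60 [1.36, 1.85]), LDHA with 766 and 309 CPM (1.31 [1.10, 1.52]), LDHB with 98.8 and 39.8 CPM (1.31 [0.72, 1.95]) and the glucose transporter SLC2A1 with 157 and 64.2 CPM (1.29 [0.82, 1.78]). The first 2 of these had ratios of 1.68 [1.62, 1.74] and 0.99 [0.95, 1.03] in the other kept cells. Of 40 oxidative phosphorylation genes, 35 had a ratio above 0, beside 1324 of all 2832 measured genes. Of the 40, 1 (NDUFC2) was 2-fold higher, near the 3% of all genes. The list median was 0.22, beside 0.33 in the other kept cells. GPX4, which repairs oxidised lipids, had 104 and 25.7 CPM (2.02 [1.32, 2.79]) and a ratio of 1.64 [1.51, 1.79] elsewhere. For GAPDH, LDHA and GPX4 the ratio in pericytes was thus within 0.5 of that in the other kept cells, and in lymphocyte-marked cells GAPDH was at 735 and 264 CPM.

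Several immediate early genes, which respond within minutes to handling and to stimulation, were lower in the glaucoma library. In all members 7 of 15 were lower and 0 higher (median -0.96), beside 5.17% and 2.82% of all genes. In core members 3 of 9 were lower (median -0.78), beside 5.23% of all genes. In the other kept cells the median was -0.64. EGR1 had 358 and 1356 CPM (-1.92 [-2.10, -1.74]), ATF3 69.3 and 278 CPM (-2.01 [-2.42, -1.61]) and FOSB 51.9 and 109 CPM (-1.07 [-1.60, -0.55], and -0.97 without the top barcode of each library). FOS, the most abundant of them, had 3164 and 4522 CPM (-0.52 [-0.59, -0.45]). Of the heat shock genes, DNAJB1 was lower with 109.99 and 406 CPM (-1.88 [-2.21, -1.56]).

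Inflammatory genes differed between core members and all members. In core members, 3 of 10 measured genes were higher and 1 lower, beside 3% and 5.23% of all genes, with a median log2 ratio of -0.01. In all members, 1 was higher and 6 lower of 16, beside 2.82% and 5.17% of all genes. The chemokine CCL2 had 122 and 19.2 CPM in core members (2.67 [1.89, 3.55]) but 148 and 195 CPM in all members (-0.40 [-0.64, -0.16]). In core members 1 barcode held 36.7% of its glaucoma UMIs, and without the top barcode of each library CCL2 had 78 and 16.8 CPM (2.21 [1.35, 3.19]). CXCL14 had 452 and 169 CPM (1.42 [1.13, 1.71]) in core members and 1022 and 1245 CPM (-0.29 [-0.38, -0.19]) in all. In lymphocyte-marked cells, CCL2 was at 87.8 and 7.54 CPM and CXCL14 at 185 and 7.54 CPM. NFKBIZ, an inducible regulator of NF-kappa B targets, was lower in both sums, with 58 and 182 CPM in core members (-1.65 [-2.12, -1.20]). IFI27, an interferon-induced gene, was higher with 145 and 33.4 CPM (2.12 [1.51, 2.78]), and had a ratio of 1.76 [1.63, 1.89] in the other kept cells.

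FABP4, a fatty acid binding protein of adipocytes, capillary endothelium and some mural cells, was higher in core members by the largest ratio after TAC1 and SPP1, which rested on 5 and 15 cells of the glaucoma library. It had 231 and 10.3 CPM in core members, a ratio of 4.49 [3.49, 5.72], from 85 of 506 and 4 of 296 cells (16.8% and 1.35%). After thinning to 1000 UMIs the shares were 13% [9.95, 16.6] and 1.51% [0.413, 3.82]. In vascular smooth muscle FABP4 had 207 and 134 CPM, a ratio of 0.62 [0.36, 0.89], and the 2-gene members held 3.23 and 1.33 CPM. In lymphocyte-marked cells it was seen in 1 of 185 and 0 of 68 cells. The other kept cells had 28.3 and 3.5 CPM, a ratio of 3.01 [2.59, 3.46], so FABP4 was higher in the glaucoma library outside pericytes as well. LPL, whose product releases fatty acids at the capillary wall, went the other way with 204 and 476 CPM (-1.22 [-1.48, -0.97]), and had a ratio of -1.26 [-1.37, -1.16] in the other kept cells.

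FILIP1L, SCN7A and BCAM were chosen after their values were seen. FILIP1L, a filamin-binding protein, had 323 and 1029 CPM, a ratio of -1.67 [-1.86, -1.48]. Its ratio was -0.41 [-0.56, -0.26] in vascular smooth muscle, 0.52 [-0.09, 1.15] in 2-gene members and 0.23 [0.13, 0.33] in the other kept cells. After thinning it was seen in 28.6% [24.3, 33.2] and 54.7% [48.5, 60.8] of core members, beside an unthinned 39.7% and 74.7% and 0.541% and 0% of lymphocyte-marked cells. SCN7A, a sodium-sensing channel used here among the Schwann cell markers, had 9.17 and 141 CPM, a ratio of -3.94 [-5.11, -2.97]. Its UMIs came from 9 of 506 and 53 of 296 cells, or 1.78% and 17.9% beside 2.16% and 0% of lymphocyte-marked cells. In the other kept cells SCN7A had 116 and 229 CPM, a ratio of -0.98 [-1.06, -0.91], so it was lower there too. BCAM was higher with 1148 and 543 CPM (1.08 [0.92, 1.24]), had 1074 and 818 CPM in vascular smooth muscle (0.39 [0.28, 0.50]), and was at 0 in lymphocyte-marked cells of both libraries. Its ratio was 1.35 [1.24, 1.47] in the other kept cells, so it was higher there too. The forkhead transcription factor FOXC1 had 199 and 97.5 CPM (1.03 [0.64, 1.43]).

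**Figure D5:**
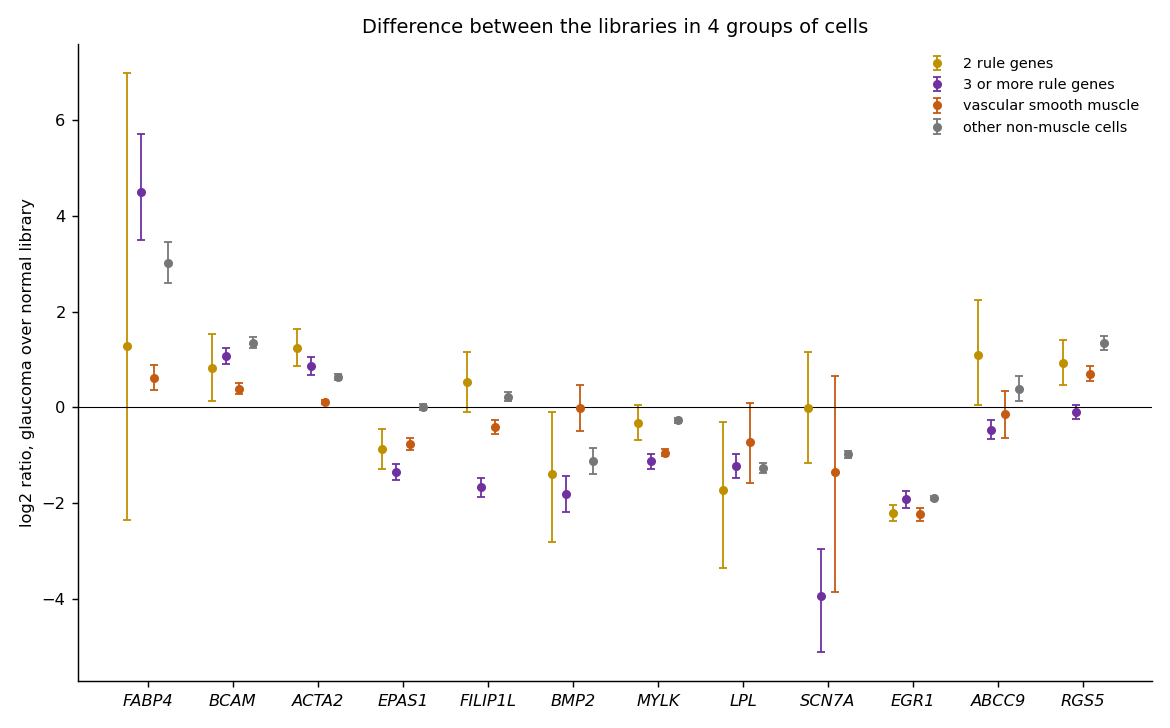
Log2 ratio of glaucoma over normal library (vertical axis) of 12 genes (horizontal axis) in members with 2 rule genes, in core members, in vascular smooth muscle and in the other kept non-muscle cells, with bars for exact 95% intervals. EGR1 lies between -2.24 and -1.90 in all 4 groups, whereas FILIP1L is at -1.67 in core members and at 0.23 in the other cells.

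Other genes of the lists that were 2-fold apart in core members were few. ITGA1, a collagen receptor chain, was lower with 152 and 332 CPM (-1.13 [-1.43, -0.83]), but over members without a UMI of RERGL its ratio was 0.14. PSMB9, a subunit of the immunoproteasome, was higher with 132 and 62.9 CPM (1.07 [0.59, 1.58], and 0.97 without the top barcode of each library), and the chemokine CCL26 with 369.7 and 148 CPM (1.32 [1.02, 1.64]). APOE, the lipid carrier of the lipid gene list, was higher with 849 and 142 CPM (2.58 [2.29, 2.87]) and had 673 and 30.1 CPM in lymphocyte-marked cells. Of the growth factors outside the lists, IGF1 was lower with 23.4 and 127 CPM (-2.44 [-3.16, -1.77]) and the matrix protein TGFBI with 26.5 and 142 CPM (-2.43 [-3.10, -1.80]), both chosen after their values were seen. One barcode of the normal library held 46.5% of its IGF1 UMIs and another 60.4% of its TGFBI UMIs. Without the top barcode of each library the ratios were -1.91 [-2.77, -1.11] for IGF1 and -1.29 [-2.08, -0.53] for TGFBI. In the other kept cells IGF1 had a ratio of -1.44 [-1.52, -1.36] and TGFBI of -1.83 [-1.91, -1.74].

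Values in core members are given for some of the 15 highest and 15 lowest genes over all members. MGARP, a mitochondrial protein, had 184 and 20.5 CPM in core members (3.17 [2.43, 4.00]) and a ratio of 2.14 [2.05, 2.24] in the other kept cells. VCAM1, an adhesion molecule for leukocytes, had 56 and 12.4 CPM in all members (2.17 [1.46, 2.96]) and 49.9 and 14.1 CPM in core members. CRHBP, which binds corticotropin-releasing hormone, had 114 and 6.53 CPM (4.12 [3.21, 5.20]) in all members and 72.3 and 1.28 CPM in core members, where 5 and 1 cells had a UMI. Among the 15 lowest, the cytokine IL6 had 9.42 and 78.4 CPM in all members (-3.06 [-3.86, -2.34]) and 0 and 7.7 CPM in core members, and the chaperone regulator BAG3 26.7 and 185 CPM (-2.79 [-3.25, -2.36]) and 18.3 and 83.4 CPM. IL6 had a ratio of -2.49 [-2.68, -2.31] in the other kept cells, and BAG3 one of -1.97 [-2.06, -1.87].

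Some of the highest and lowest ratios over all members rested on few barcodes. TAC1, the precursor of substance P, had 261 UMIs from 13 cells in the glaucoma library against 0 in the normal one. With 3 counts set as a floor there it was 69.6-fold higher, and the exact lower limit of its log2 ratio was 5.81. SPP1 (osteopontin) had 149 and 14.4 CPM, with 54.9% of its glaucoma UMIs in 1 barcode, and the haemoglobin gene HBB had 367 and 18.3 CPM, with 72.4% in 1. In the normal library, SCGB3A1, a secretoglobin of epithelia, had 10.5 and 3766 CPM, with 53.7% in 1 barcode and 13 cells in all. The epithelial genes PIGR and AQP5 had 217 and 140 UMIs from 3 cells each in that library. Core members held 6.11 and 6.42 CPM of SCGB3A1, so nearly all its UMIs came from 2-gene members. RPS2, a ribosomal protein gene, had 3.66 and 227 CPM (-5.95 [-7.28, -4.89]), and its ratio in the other kept cells was -6.37 [-6.78, -5.99].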

How the data were processed

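The values are UMI counts per gene and barcode, which the authors deposited as a filtered matrix for each library, per the file headers made with Cell Ranger 6.0.0. The submitters' processing notes name Cell Ranger 4.0 and Seurat 3.0 instead. The genome build is not given in the sources used here. Of 24037 features, 15580 have a symbol in the files, 879 took one from the reference table and 7578 have none. Of 10624 and 7028 barcodes, 8633 and 5430 were kept. The members and the 23 gene lists and 9 marker lists were chosen with earlier results of these data known.

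UMIs were summed over cells of a group, and libraries were compared by an exact conditional binomial interval. The comparison was tested on simulated data. With 1 library per group, intervals describe these libraries and not the conditions. Doublets were kept, and Scrublet calls (296 and 45 kept cells, 26 and 1 members, at an expected rate of 0.8% per 1000 cells) were removed in an alternative. Over all members, the text draws on the 15 highest and 15 lowest genes, the 20 most above other cells in both libraries, the 4 highest in a list and the called list members. Genes called in core members only, and genes compared with vascular muscle, were named after their values were seen. A few genes and 1 list are not reported here. Alternatives changed the number of rule and muscle genes, RERGL, doublets, mitochondrial and UMI minimums, fold, centring, thinning and the most abundant barcode. Python 3.11.15, numpy 2.4.6, scipy 1.17.1, pandas 2.3.3, scanpy 1.11.5 and matplotlib 3.10.9 were used.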

Additional observations from a re-analysis of the deposited data

How the results depend on the processing

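The log2 ratio of the pericyte share was 0.15, and moved to 0.45 [0.11, 0.79] in members without a UMI of RERGL. It lay between -0.02 and 0.18 under the other alternatives. The count of genes higher in the glaucoma library was 129 over all members, and became 85 with at least 3 of the 6 genes, 84 with 0 muscle genes, 38 after thinning to 1000 UMIs, 238 with a minimum of 50 UMIs, 476 with a minimum of 1 UMI and 464 with a fold of 1.5. The count of lower genes was 237, and became 148 with at least 3 genes, 148 without RERGL, 82 after thinning, 383 with 50 UMIs, 784 with 1 UMI and 857 with a fold of 1.5. Requiring at least 4 of the 6 genes, chosen after seeing the data, gave 68 higher and 134 lower genes. Fewer cells or UMIs leave fewer genes measured. Turning over was counted only for genes at least 2-fold apart over all members. Genes under 2-fold there changed sign too, among them CCL2, CXCL14 and MYOC with at least 3 genes. Among the counted genes, with at least 3 rule genes the ratio turned over for C3 (0.43) and PLCB1 (0.36), and without RERGL for ITGA1 (0.14). With at least 4 it turned over for C3 (1.18), CISH (0.043), IER3 (0.12), PLCB1 (0.48), SCGB3A1 (0.12) and SOD2 (0.27), and after thinning for HSPH1 (0.056). The cause was not tested. Of 1884 values for 173 genes, 1438 stayed within counting error and 436 moved, and of 370 list medians 311 stayed. No paired analysis was possible because there was 1 library per group. Leaving out the top barcode of each library in core members, also chosen after seeing the data, took PSMB9 (0.97) and FOSB (-0.97) under 2-fold. The minimum of 100 UMIs is a chosen threshold.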
